A study of Astyanax mexicanus with 12 samples.

Results

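The genes of the gonadotropin receptors, lhcgr and fshr, and of the gonadal insulin-like growth factor igf3 were followed in 12 ovaries of Astyanax mexicanus, a fish with sighted surface populations and blind cave populations. They were chosen by symbol and are 3 of the 27420 genes in the count table, each with a single entry (lhcgr ENSAMXG00000034302, fshr ENSAMXG00000011613 and igf3 ENSAMXG00000035036). The choice was made with earlier results of these data known. All 3 passed the filter on low counts, as did 14627 genes in all. RNA from the right ovary was sequenced in 3 starved and 3 control Tinaja cavefish and in 3 starved and 3 control surface fish. All were females of about 660 days after fertilisation, labelled as wild type and differing by population and by feeding alone, and the controls are labelled as not treated. The sources used here give neither the length of the starvation nor whether a library came from 1 fish or a pool. Replicates are labelled only as separate samples, so each p-value reflects sample-to-sample spread, which may be technical.

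The pituitary hormones follicle-stimulating hormone and luteinising hormone act on the ovary through a pair of closely related receptors that couple to the stimulatory G protein and raise cyclic AMP in follicle cells. In teleosts the receptor encoded by fshr is linked to follicle growth and oestrogen production, and the one encoded by lhcgr to the late follicle, oocyte maturation and ovulation. The factor encoded by igf3 is found in fish and made mainly in the gonads. In zebrafish it is produced by follicle cells under gonadotropin stimulation and promotes follicle growth and oocyte maturation.

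Reads assigned to genes numbered 5949155 to 10198881 per library, so that 1 read equals 0.108 to 0.164 CPM (the reads of a gene scaled to a common library total, after adjustment between libraries by trimmed means of M values, TMM). The 3 genes were rare in whole ovary RNA. Over all 12 libraries lhcgr had 729 reads, igf3 206 and fshr 199. At the mean reads of each group, counting error alone gives a coefficient of variation of 9.74% (lhcgr in starved Tinaja) to 50% (igf3 in starved surface fish). The identity of the tissue was plain from oocyte markers, with 5669 to 8413 CPM summed over 14 genes. Granulosa cell markers, 19 genes, summed to 20.2 to 46.5 CPM. The filter asks for about 10 reads in at least 3 libraries, which igf3 met mainly through Tinaja cavefish, where it was high. Its tests between populations are therefore also given without the filter, and counts and medians over the tested genes of a list are descriptions. A level in whole ovary RNA cannot tell fewer cells of a type from less RNA per cell.

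The luteinising hormone receptor gene lhcgr was lowest in starved surface fish. Its reads were 17, 8 and 6 in starved surface fish 1, 2 and 3 (2.31, 1.07 and 0.646 CPM), against 46, 35 and 31 in control surface fish 1, 2 and 3 (5.55, 4.75 and 4.25 CPM). Each starved surface fish lay below each control. The level averaged 1.34 ± 0.864 CPM in starved and 4.85 ± 0.654 CPM in control surface fish (SD, n = 3 each). It fell 3.66-fold (95% interval 1.83 to 7.34), a log2 change of -1.87 ± 0.46 (SE) with an adjusted p of 0.0491 in the edgeR quasi-likelihood test. Of all genes tested, 3.19% were called in this comparison, where called means an adjusted p under 0.05, and 1.45% were called lower. Lower levels without overlap were found for 14.8% of all genes. The call lay close to the threshold. It was lost when any surface library other than starved 1 was left out (adjusted p up to 0.146), in a fit of the surface libraries alone (0.0828), with limma voom (0.140), with upper-quartile factors (0.0525) and with libraries thinned to 1 depth (0.0892). It was held with DESeq2 (0.00446) and without the low-count filter (0.0393). The log2 change was -2.50 to -1.52 over the libraries left out.

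In Tinaja cavefish lhcgr was read more often in both feeding states. The reads were 155, 59 and 102 in starved Tinaja 1, 2 and 3 (20.1, 7.32 and 16.7 CPM), against 96, 105 and 69 in control Tinaja 1, 2 and 3 (14.1, 15.1 and 10.1 CPM). Starved Tinaja 1 and 3 lay above all controls and starved 2 below all of them. The level averaged 14.7 ± 6.62 CPM in starved and 13.1 ± 2.64 CPM in control Tinaja cavefish (SD, n = 3 each). The ratio was 1.12 with a 95% interval of 0.632 to 1.99, and no change was called (adjusted p = 1, edgeR quasi-likelihood test). The interval is not a limit of detection. The sign turned to -0.13 on the log2 scale without starved Tinaja 1. In this comparison 0.0205% of all genes were called and 3.95% had an unadjusted p under 0.05.

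The difference between the responses of the populations, tested as an interaction, was 2.04 ± 0.60 (SE) on the log2 scale for lhcgr, with a 95% interval of 0.74 to 3.34. It did not pass over all genes (adjusted p = 0.189, unadjusted p = 0.00502 in the edgeR quasi-likelihood test). Of all genes, 0.0684% were called by this test and 15.5% had an unadjusted p under 0.05.

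**Figure D1:**
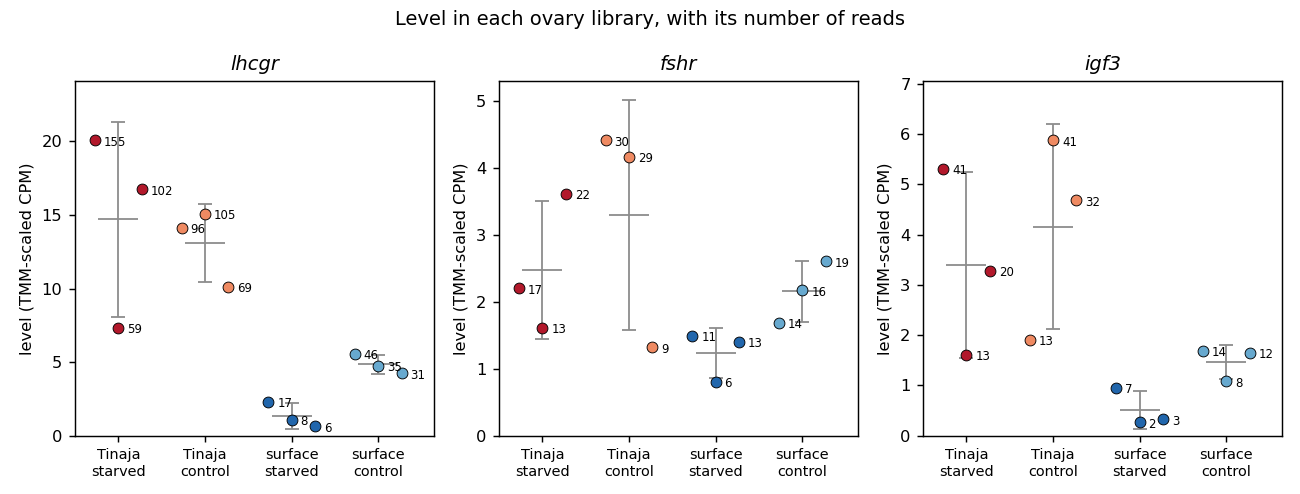
Levels of lhcgr, fshr and igf3 in TMM-scaled CPM (y axis, from 0) for 3 libraries in each of 4 groups (x axis). Points are libraries with their number of reads beside them, and grey bars are the mean ± SD. For lhcgr all 6 Tinaja libraries (7.32 to 20.1 CPM) lie above all 6 surface libraries (0.646 to 5.55 CPM).

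Between the populations, lhcgr was higher in Tinaja cavefish in each feeding state. Among starved fish it was 11.1-fold higher in Tinaja than in surface fish (95% interval 5.57 to 21.9, adjusted p = 0.000131, edgeR quasi-likelihood test), where 40.3% of all genes were called and 20.3% called higher. Among control fish it was 2.69-fold higher (1.47 to 4.92, adjusted p = 0.0168), where 32.4% of all genes were called and 16% called higher. Neither pair of groups overlapped, as for 26.6% of all genes higher in Tinaja among starved fish and 23.2% among control fish. The call among control fish was lost without surface control 2 (0.0505), surface control 3 (0.0563) or Tinaja control 2 (0.0529). These comparisons share samples with those of starvation. Across the feeding states together the ratio was 5.45 (3.46 to 8.61, adjusted p = 3.69e-05), with 51% of all genes called and 25.7% called higher. In all 36 pairs of a Tinaja and a surface library the Tinaja library was higher, as for 12.6% of all genes. An exact two-sided permutation test of log2 CPM within feeding states gave p = 0.005, the smallest it can give, or 0.0375 adjusted over 15 tests of the 3 genes. This adjustment, used for fshr and igf3 below too, does not cover the choice of the genes. The groups ran in the order of starved Tinaja, control Tinaja, control surface and starved surface fish. The neighbours control Tinaja and control surface fish, and control surface and starved surface fish, differed at the threshold, and the Tinaja groups overlapped.

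The follicle-stimulating hormone receptor gene fshr passed the threshold in none of the 6 comparisons. It had 11, 6 and 13 reads in starved surface fish 1, 2 and 3 (1.49, 0.803 and 1.40 CPM), against 14, 16 and 19 in control surface fish 1, 2 and 3 (1.69, 2.17 and 2.60 CPM). Each starved surface fish lay below each control, as for 14.8% of all genes, but starved 1 and control 1 were close. Their levels averaged 1.23 ± 0.375 CPM in starved and 2.15 ± 0.459 CPM in control surface fish, a ratio of 0.578 with a 95% interval of 0.266 to 1.26 (adjusted p = 0.396, edgeR quasi-likelihood test).

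In Tinaja cavefish fshr had 17, 13 and 22 reads in starved fish 1, 2 and 3 (2.20, 1.61 and 3.61 CPM), against 30, 29 and 9 in control fish 1, 2 and 3 (4.41, 4.16 and 1.32 CPM). Control Tinaja 3 was below all starved Tinaja libraries, and control 1 and 2 were above all of them. The levels averaged 2.47 ± 1.03 CPM in starved and 3.30 ± 1.72 CPM in control Tinaja cavefish. The ratio was 0.744 with a 95% interval of 0.357 to 1.55 (adjusted p = 1, edgeR quasi-likelihood test). The interaction for fshr was 0.36 ± 0.71 (SE) on the log2 scale, with an interval of -1.17 to 1.90.

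Set against surface fish, fshr in Tinaja cavefish had a ratio of 1.97 among starved fish (95% interval 0.906 to 4.28, adjusted p = 0.149, edgeR quasi-likelihood test) and of 1.53 among control fish (0.731 to 3.20, adjusted p = 0.364). Over both feeding states the Tinaja library was higher in 27 of 36 pairs, while 12.6% of all genes were higher in all 36. The ratio there was 1.74 (1.02 to 2.97, adjusted p = 0.0793, edgeR quasi-likelihood test). Of 20 alternative settings, which include a repeat of the main fit on the same reads, this comparison passed in 2, with adjusted p up to 0.193. They were without Tinaja control 3 (0.0210), the Tinaja library lowest in fshr, and with thinned libraries (0.0469). The exact permutation test within feeding states gave p = 0.08 for fshr (0.136 adjusted). The order of the mean levels was control Tinaja, starved Tinaja, control surface and starved surface fish, and neither pair of one population passed. The neighbours starved Tinaja and control surface fish overlapped, at 1.61 to 3.61 against 1.69 to 2.60 CPM.

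The gene igf3 had the fewest reads in starved surface fish. They were 7, 2 and 3 in starved surface fish 1, 2 and 3 (0.951, 0.268 and 0.323 CPM), against 14, 8 and 12 in control surface fish 1, 2 and 3 (1.69, 1.09 and 1.64 CPM). Each starved library lay below each control, as for 14.8% of all genes. However, starved 2 and 3 held no more than 3 reads, the floor used here for a level (0.323 to 0.492 CPM per library). The levels averaged 0.514 ± 0.379 CPM in starved and 1.47 ± 0.336 CPM in control surface fish. The ratio was 0.350 with a 95% interval of 0.129 to 0.944, and it did not pass over all genes (adjusted p = 0.196, unadjusted p = 0.0398, edgeR quasi-likelihood test), where 22.5% of all genes had an unadjusted p under 0.05.

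In Tinaja cavefish igf3 had 41, 13 and 20 reads in starved fish 1, 2 and 3 (5.31, 1.61 and 3.28 CPM), against 13, 41 and 32 in control fish 1, 2 and 3 (1.91, 5.88 and 4.68 CPM). A low library, starved 2 and control 1, stood in each group and the groups overlapped. The levels averaged 3.40 ± 1.85 CPM in starved and 4.16 ± 2.04 CPM in control Tinaja cavefish, a ratio of 0.817 with a 95% interval of 0.364 to 1.84 (adjusted p = 1, edgeR quasi-likelihood test). Its sign turned without starved Tinaja 2 (0.05 on the log2 scale) and without control Tinaja 2 (0.04). The interaction for igf3 was 1.23 ± 0.85 (SE) on the log2 scale, with an interval of -0.61 to 3.06 (adjusted p = 0.516).

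Between the populations igf3 was 6.55-fold higher in starved Tinaja than in starved surface fish (95% interval 2.51 to 17.1, adjusted p = 0.00549, or 0.00360 without the low-count filter, edgeR quasi-likelihood test). Among starved fish 40.3% of all genes were called and 20.3% called higher. Among control fish the igf3 ratio was 2.80 (1.19 to 6.58, adjusted p = 0.0626, or 0.0753 without the filter). It passed in 1 of 15 alternative settings (that repeat included), with adjusted p up to 0.200. That setting left out Tinaja control 1 (0.0300), the control Tinaja library lowest in igf3. With both feeding states pooled, where 25.7% of all genes were called higher, igf3 was 4.28-fold higher in Tinaja cavefish (2.25 to 8.15, adjusted p = 0.00143, or 0.000686 without the filter). It was higher in 34 of 36 pairs, while 12.6% of all genes were higher in all 36. The exact permutation test within feeding states gave p = 0.005, the smallest it can give (0.0375 adjusted). The order of the mean levels was control Tinaja, starved Tinaja, control surface and starved surface fish, and neither pair of one population passed. Starved Tinaja and control surface fish overlapped in igf3, at 1.61 to 5.31 against 1.09 to 1.69 CPM.

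**Figure D2:**
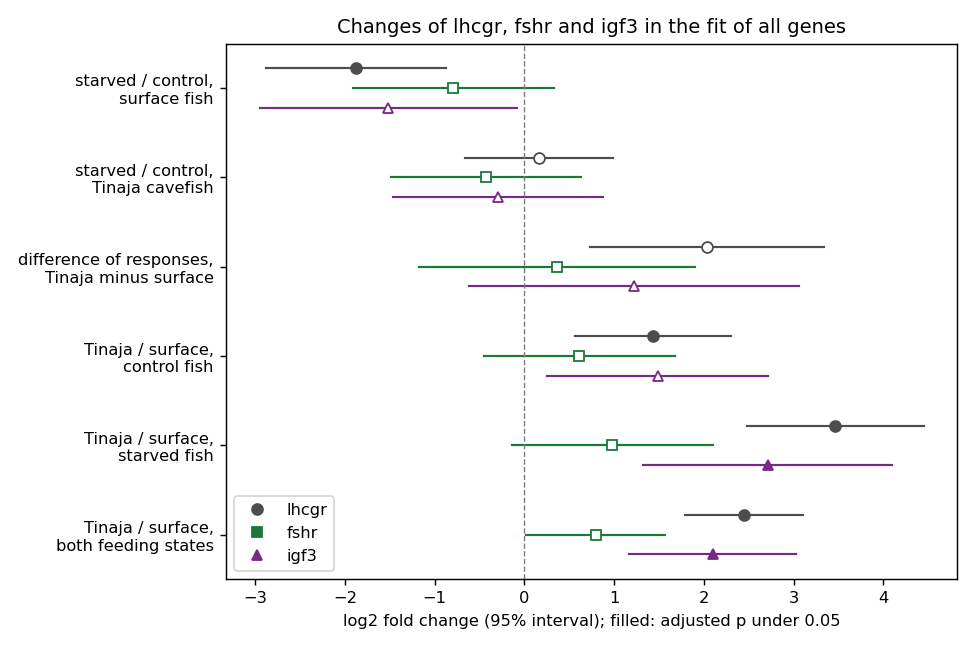
Log2 fold change (x axis) of lhcgr, fshr and igf3 in 6 comparisons (y axis), from the edgeR fit of all genes. Lines are 95% intervals and filled symbols have an adjusted p under 0.05, which are 4 for lhcgr, 2 for igf3 and 0 for fshr.

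The balance of the receptor genes was read within each library, where it needs no scaling between libraries. Reads were not divided by transcript length, so the share of lhcgr in the reads of lhcgr plus fshr is compared between libraries only and does not say which receptor was more abundant. The share was 60.7%, 57.1% and 31.6% in starved surface fish 1, 2 and 3, with exact binomial 95% intervals of 40.6% to 78.5%, 28.9% to 82.3% and 12.6% to 56.6%. It was 76.7%, 68.6% and 62% in control surface fish 1, 2 and 3, with intervals of 64.0% to 86.6%, 54.1% to 80.9% and 47.2% to 75.3%. All starved surface libraries lay below all controls, but starved 1 and control 3 nearly met and the intervals overlapped widely. The means were 49.8% ± 15.9 in starved and 69.1% ± 7.34 in control surface fish (SD, n = 3 each). The exact permutation test gave p = 0.1 (0.167 adjusted over 5 tests), the smallest that 3 against 3 libraries allow, so this design cannot pass 0.05. Without starved surface 3 the difference was -10.2 percentage points, against -19.3 with it.

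In Tinaja cavefish the share of lhcgr was 90.1%, 81.9% and 82.3% in starved fish 1, 2 and 3, against 76.2%, 78.4% and 88.5% in control fish 1, 2 and 3. These groups overlapped (exact permutation p = 0.5, also after adjustment). With both feeding states pooled the share averaged 82.9% ± 5.48 in Tinaja and 59.5% ± 15.3 in surface fish (SD, n = 6 each). The exact permutation test within feeding states gave p = 0.01, or 0.05 after that adjustment, which does not fall under the threshold. Tinaja exceeded surface fish by 35.0 percentage points among starved and 11.9 among control fish (exact permutation p = 0.1 and 0.2).

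**Figure D3:**
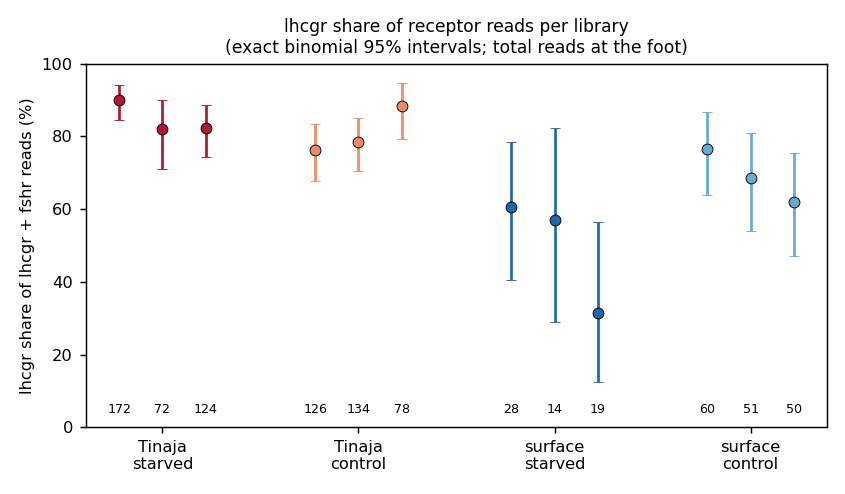
Share of lhcgr in the reads of lhcgr plus fshr, in percent (y axis), for 3 libraries in each of 4 groups (x axis). Bars are exact binomial 95% intervals, which cover counting error only, and the numbers at the foot are the reads of both genes. Tinaja libraries lie at 76.2% to 90.1% and starved surface libraries at 31.6% to 60.7%. Control surface libraries lie at 62% to 76.7% and overlap with Tinaja.

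Markers of the follicle cells, and those of connective tissue, macrophages and smooth muscle, had lower mean log2 levels in starved than in control surface fish. Of 19 granulosa cell genes that have an entry, 10 were tested, and 4 (CYP19A1, foxl2a, inhbab and INHBB) had no more than 3 reads in any library. The summed level of the 19 was 20.2 to 32.0 CPM in starved and 28.8 to 34.5 CPM in control surface fish. It was 30.2 to 38.6 CPM in starved and 24.6 to 46.5 CPM in control Tinaja cavefish. None of the 10 was called for starvation in surface fish, against 3.19% of all genes. The median log2 change of the 10 was -1.10 against -0.01 for all genes, and 1 of 10 had a positive value. Among these, inha, which encodes the inhibin alpha subunit, had 5, 0 and 1 reads in starved surface fish 1, 2 and 3, against 13, 9 and 12 in control surface fish. The aromatase gene cyp19a1a, which makes oestrogen, had 0, 0 and 4 reads in starved surface fish, against 16, 9 and 10 in control surface fish. The granulosa transcription factor gene foxl2b had 2, 2 and 3 reads in starved surface fish, against 7, 6 and 8 in control surface fish. In gsdf, a growth factor gene of somatic gonad cells in fish, the groups overlapped, with 5, 14 and 20 reads in starved and 15, 17 and 11 in control surface fish. These genes were named after their values were seen, and none of them is the gene with a positive value.

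As the mean log2 CPM of the 10 tested genes, the granulosa level was 0.25 ± 0.26 in starved and 1.14 ± 0.07 in control surface fish, and 1.36 ± 0.34 in starved and 1.42 ± 0.53 in control Tinaja cavefish (SD, n = 3 each). Read against this level, lhcgr was 0.30 ± 1.01 in starved and 1.21 ± 0.13 in control surface fish on the log2 scale. The values were 1.36, 0.21 and -0.65 in starved surface fish 1, 2 and 3 and 1.11 to 1.35 in control surface fish, so the groups overlapped (exact permutation p = 0.4, or 0.857 adjusted over 10 tests). The same measure for fshr was 0.30 ± 0.47 in starved and 0.12 ± 0.34 in control surface fish (exact permutation p = 0.6, or 0.857 adjusted). A difference with starvation in lhcgr relative to granulosa markers was not detectable with 3 libraries a group. Between populations, lhcgr relative to these markers was 2.36 ± 0.64 in Tinaja and 0.76 ± 0.81 in surface fish (SD, n = 6 each). It was higher in Tinaja within feeding states, with an exact permutation p of 0.005, the smallest that test can give. Adjusted over 10 tests this became 0.05, which does not fall under the threshold. A lone test at the smallest p cannot fall under it after this adjustment, so the adjusted value does not decide. The same measure for fshr was 0.14 ± 0.43 in Tinaja and 0.21 ± 0.38 in surface fish (exact permutation p = 0.8, or 0.889 adjusted).

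Theca cells surround the granulosa layer and make androgens. Of 8 theca genes in the table, 5 were tested. The list shares genes with that of steroid synthesis, given further on. None of the 5 was called for starvation in surface fish, against 3.19% of all genes. The median log2 change of the theca genes there was -1.77, with 0 of 5 above 0. Their mean log2 CPM was 0.89 ± 0.14 in starved and 1.75 ± 0.41 in control surface fish, without overlap. It was 2.81 ± 0.42 in starved and 2.62 ± 0.24 in control Tinaja cavefish. The summed level was 161 to 245 CPM in starved and 153 to 237 CPM in control surface fish. Most of it was scarb1, a lipoprotein receptor gene that many cell types express. In Tinaja cavefish the sum was lower, at 116 to 138 CPM in starved and 119 to 151 CPM in control fish. The oocyte markers stood on the other side, with a mean log2 CPM of 8.31 ± 0.09 in starved and 8.01 ± 0.06 in control surface fish. Of these 14 genes 5 rose with starvation in surface fish, where 1.74% of all genes rose. In Tinaja cavefish the oocyte level was 7.96 ± 0.09 in starved and 8.0 ± 0.18 in control fish. Markers of some other cell types were also lower in starved than in control surface fish. In surface fish the mean log2 CPM of 10 stroma genes was 1.68 ± 0.51 in starved and 2.59 ± 0.60 in control fish. It was 0.55 ± 0.37 in starved and 1.18 ± 0.46 in control surface fish for 12 macrophage and neutrophil genes, and 0.93 ± 0.79 in starved and 1.65 ± 0.36 in control surface fish for 7 smooth muscle genes. The groups of each of these lists overlapped, with median log2 changes of -1.04, -0.99 and -0.81. No gene of them was called, against 3.19% of all genes. In Tinaja cavefish stroma markers were also lower with starvation, at 3.20 ± 0.95 in starved and 4.00 ± 0.90 in control fish. So were macrophage and neutrophil markers, at 1.68 ± 0.90 in starved and 2.45 ± 0.66 in control Tinaja cavefish. These groups overlapped as well, with median log2 changes of -0.79 and -0.75. Smooth muscle markers were at 2.75 ± 0.52 in starved and 2.65 ± 0.52 in control Tinaja cavefish. Blood vessel and fat cell markers had similar means in starved and control surface fish. Blood vessel markers were at 1.61 ± 0.18 in starved and 1.65 ± 0.13 in control surface fish. Fat cell markers were at 0.86 ± 0.58 in starved and 0.82 ± 0.29 in control surface fish. Between Tinaja and surface fish over both feeding states, 5 of 10 granulosa genes were higher in Tinaja and 1 was lower. Of 5 theca genes 4 were higher and 1 lower, and of 12 macrophage and neutrophil genes 6 were higher and 1 lower. Of 10 stroma genes 7 were higher and 0 lower, and of 7 smooth muscle genes 4 were higher and 0 lower. Of 14 oocyte genes 2 were higher and 7 lower. Over all genes 25.7% were higher and 25.3% lower. The part of these cell types in the results for lhcgr, fshr and igf3 was not tested.

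The 2 Tinaja libraries lowest in igf3, starved 2 and control 1, were the highest Tinaja libraries in markers of connective tissue, macrophages, smooth muscle and fat cells. The mean log2 CPM of 10 stroma genes was 4.14 in starved Tinaja 2 and 4.88 in control Tinaja 1, where igf3 had 1.61 and 1.91 CPM. It was 2.23 and 3.24 in starved Tinaja 1 and 3, and 3.07 and 4.04 in control Tinaja 2 and 3, where igf3 had 3.28 to 5.88 CPM. Starved Tinaja 2 was also the Tinaja library lowest in lhcgr, but control Tinaja 1, at 14.1 CPM, was not low in lhcgr. Macrophage and neutrophil markers were at 2.72 in starved Tinaja 2 and 3.13 in control Tinaja 1, smooth muscle markers at 3.22 and 3.21, and fat cell markers at 3.28 and 3.50. The part of these tissues in the levels was not tested.

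**Figure D4:**
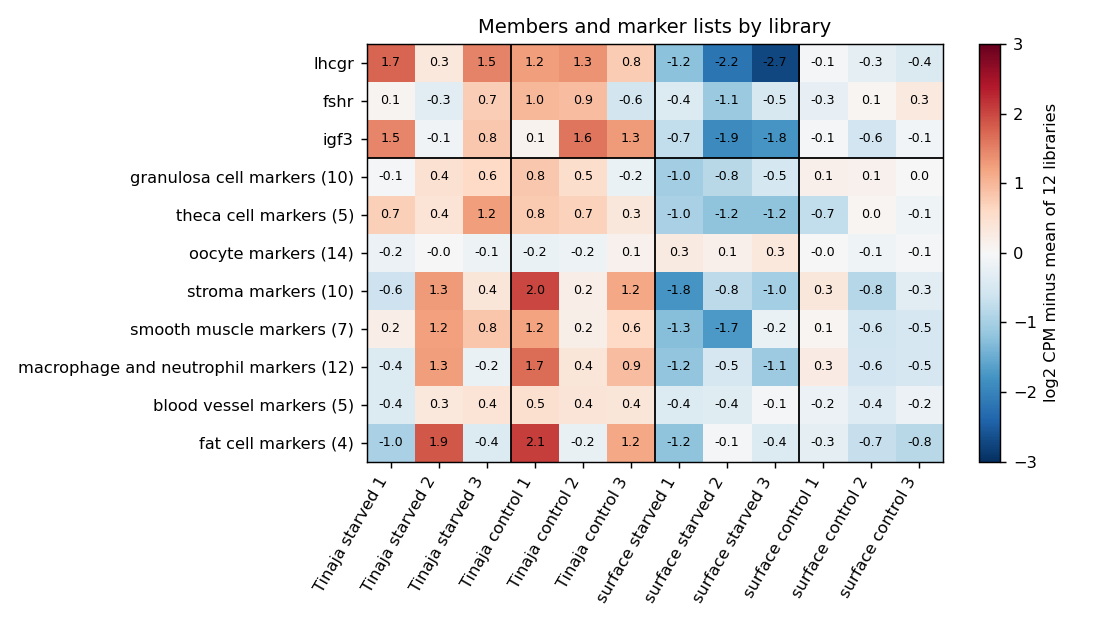
Log2 CPM minus the mean of 12 libraries (colour and printed value) for lhcgr, fshr, igf3 and the means of 8 marker lists (rows, with the number of tested genes), by library (columns, with lines between the 4 groups). In starved surface libraries oocyte markers are above their mean, and every other row is below its mean. The means include the Tinaja libraries, and control surface libraries are below them in some rows too.

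The hormones that bind these receptors are made in the pituitary, and their genes were nearly unread in the ovary. The gene fshb of the follicle-stimulating hormone beta subunit had 0 reads in all 12 libraries. The luteinising hormone beta gene lhb had 2 reads, in starved Tinaja 2 alone, and cga, the shared alpha subunit gene, had 0 to 2 reads per library. Of 9 pituitary gonadotrope markers none exceeded 3 reads in any library. Among related receptors, tshr, which encodes the thyrotropin receptor, the third member of the family, measured 11.6 ± 1.70 CPM in starved and 17.2 ± 4.57 CPM in control surface fish, and 10.2 ± 2.68 CPM in starved and 14.4 ± 2.61 CPM in control Tinaja cavefish. It was not called in any comparison. The R-spondin receptor gene LGR6, more distantly related, had 0.872 ± 0.280 CPM in control Tinaja and 3.71 ± 0.663 CPM in control surface fish. Its log2 change was -2.07 ± 0.46 (SE, adjusted p = 0.00454, edgeR quasi-likelihood test), opposite in direction to lhcgr, where 32.4% of all genes were called. Among starved fish LGR6 was not called. There the related gene lgr4 was higher in Tinaja, by 1.19 ± 0.42 on the log2 scale (adjusted p = 0.0395, same test), as were 20.3% of all genes. The call of lgr4 was lost with 4 of 6 libraries left out.

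Gonadotropin receptors signal through cyclic AMP and protein kinase A. Of 31 tested genes of this pathway, 1 fell and 0 rose with starvation in surface fish (median log2 change -0.10, against -0.01 for all genes), and 0 changed in Tinaja cavefish. This share is near the 3.19% of all genes called in surface fish. The gene that fell was PDE7A, which encodes a phosphodiesterase that breaks down cyclic AMP. It had 6, 3 and 2 reads in starved surface fish 1, 2 and 3, against 16, 26 and 8 in control surface fish, a log2 change of -2.20 ± 0.51 (SE, adjusted p = 0.0448). It had 126, 97 and 102 reads in starved and 81, 56 and 70 in control Tinaja cavefish. A separate entry, pde7a, measured 47.7 ± 2.24 CPM in starved and 51.3 ± 4.17 CPM in control surface fish, so the division of reads between these entries is uncertain. Between populations, over both feeding states, 6 of the 31 were higher and 10 lower in Tinaja cavefish, against 25.7% and 25.3% of all genes. PDE7A was higher by 3.58 ± 0.31 (SE) on the log2 scale. Like igf3, it met the filter on low counts mainly through Tinaja cavefish, where it was high, so this value is a description. The kinase anchor gene AKAP11, the phosphodiesterase gene pde8a and the kinase subunit gene prkacbb had log2 changes of -1.65, -0.84 and -0.79.

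The actions of the luteinising hormone receptor at ovulation run through progestin and growth factor receptors. Of 24 tested genes of this list, 2 fell and 1 rose with starvation in surface fish (median log2 change -0.11), where 1.45% of all genes fell and 1.74% rose. In Tinaja cavefish 0 changed, against 0.0205% of all genes. The nuclear progestin receptor gene pgr had 3.89 ± 1.53 CPM in starved and 11.5 ± 1.54 CPM in control surface fish (log2 change -1.56 ± 0.38, SE, adjusted p = 0.0488, edgeR quasi-likelihood test). The epidermal growth factor receptor gene egfra had 1.55 ± 0.193 CPM in starved and 3.99 ± 0.938 CPM in control surface fish (-1.36 ± 0.33, adjusted p = 0.0481). CDC25B, which encodes a phosphatase that activates the mitotic kinase, rose to 1115 ± 73.7 CPM in starved, against 938 ± 7.86 CPM in control surface fish (0.25 ± 0.06, adjusted p = 0.0470). Like that of lhcgr, these calls lay close to the threshold and did not hold when libraries were left out. Those of pgr and CDC25B were lost with each of the 6 surface libraries left out, and those of egfra and PDE7A with 5 of the 6 (adjusted p up to 0.151). In starved and control Tinaja cavefish pgr had 15.2 ± 6.46 and 17.3 ± 5.61 CPM, and egfra 8.12 ± 1.74 and 8.70 ± 2.86 CPM. Between starved fish both were higher in Tinaja, by 1.96 for pgr and 2.38 for egfra on the log2 scale (adjusted p = 0.00177 and 0.000170, edgeR quasi-likelihood test). The prostaglandin synthase gene ptgs2a, induced at ovulation, was read in all Tinaja libraries (47 to 54 reads in starved and 29 to 96 in control fish). It had 0 to 1 read in starved and 0 to 3 in control surface fish, so it met the filter on low counts through Tinaja cavefish alone. The membrane progestin receptor gene paqr7a had a log2 change of -2.02 between Tinaja and surface fish over both feeding states, and pgrmc2, of a progesterone-binding membrane protein, one of 0.33.

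Steroid synthesis in the follicle is driven by both receptors. The list of steroid synthesis shares genes with the theca markers, among them cyp17a1, nr5a1a and scarb1. The results of these lists are therefore not separate. Of 15 tested genes of the steroid list none was called for starvation in either population. Over all genes 3.19% were called in surface fish and 0.0205% in Tinaja cavefish. The median log2 change of the 15 was -0.60 in surface fish and -0.02 in Tinaja cavefish, against -0.01 and 0.00 for all genes. Over both feeding states 9 of the 15 were higher and 3 lower in Tinaja than in surface fish, against 25.7% and 25.3% of all genes. The gene cyp17a1, of the androgen-producing theca enzyme, had 31, 25 and 41 reads in starved and 31, 36 and 25 in control Tinaja cavefish, against 1, 1 and 2 in starved and 2, 10 and 8 in control surface fish. As with lhcgr, every Tinaja library held more reads of cyp17a1 than any surface library. In CPM, 12.6% of all genes were higher in Tinaja without such overlap. Like igf3, cyp17a1 met the filter on low counts mainly through Tinaja cavefish, where it was high. The regulator gene nr5a1a, whose product activates steroid enzyme genes, had 23 to 54 reads in starved and 33 to 40 in control Tinaja cavefish, against 8 to 11 in starved and 14 to 21 in control surface fish. The reductase gene hsd17b12b had a log2 change over both feeding states of 1.51 and its paralog hsd17b12a of -0.38. That of nr5a1a was 1.76 ± 0.29 (SE, adjusted p = 0.000322, edgeR quasi-likelihood test).

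Of the wider insulin-like growth factor system, 29 genes were in the table and 15 were tested. None was called for starvation in either population, against 3.19% of all genes in surface fish and 0.0205% in Tinaja cavefish. The median log2 change of the 15 was -0.34 in surface fish and 0.05 in Tinaja cavefish. Over both feeding states 6 of the 15 were higher and 3 lower in Tinaja, against 25.7% and 25.3% of all genes. The binding protein gene igfbp7 had a log2 change of 1.57 and igf2r, of a clearance receptor, one of 0.25. The ligand genes igf1 and igf2a had at most 1 and 3 reads in any library. The ligand gene igf2b had 4, 69 and 4 reads in starved Tinaja 1, 2 and 3, against 37, 4 and 11 in control Tinaja 1, 2 and 3. Its high libraries, starved 2 and control 1, were those lowest in igf3. In surface fish igf2b had 0, 4 and 3 reads in starved and 3, 10 and 5 in control fish. The receptor gene igf1ra had 5.63 ± 1.31 CPM in starved and 10.4 ± 2.97 CPM in control surface fish (log2 change -0.89 ± 0.25, SE, adjusted p = 0.0665, edgeR quasi-likelihood test), and was higher in Tinaja among starved fish (14.1 ± 2.31 against 5.63 ± 1.31 CPM, adjusted p = 0.00154). Its paralog igf1rb had 120 ± 15.8 CPM in starved and 112 ± 7.90 CPM in control Tinaja cavefish, against 134 ± 4.04 CPM in starved and 148 ± 6.59 CPM in control surface fish, and was lower in Tinaja over both feeding states (log2 change -0.28 ± 0.06, adjusted p = 0.00283). The insulin receptor genes insra and insrb, at 110 to 131 and 69.7 to 85.2 CPM as group means, were called in none of the comparisons.

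Follicle growth factors and their receptors, 19 tested genes, held 0 calls for starvation in either population. Over all genes 3.19% were called in surface fish and 0.0205% in Tinaja cavefish. The median log2 change of the 19 was -0.06 in surface fish and 0.02 in Tinaja cavefish. Between populations, with both feeding states pooled, 6 were higher and 5 lower in Tinaja, near the 25.7% and 25.3% of all genes. The activin receptor gene acvr2ba had a log2 change of -3.45 ± 0.13 (SE) and smad3a, of a protein that carries activin signals, one of 2.69 ± 0.42. The bone morphogenetic protein receptor gene bmpr1aa had a log2 change of 0.54, and the oocyte growth factor gene bmp15 one of -0.31.

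**Figure D5:**
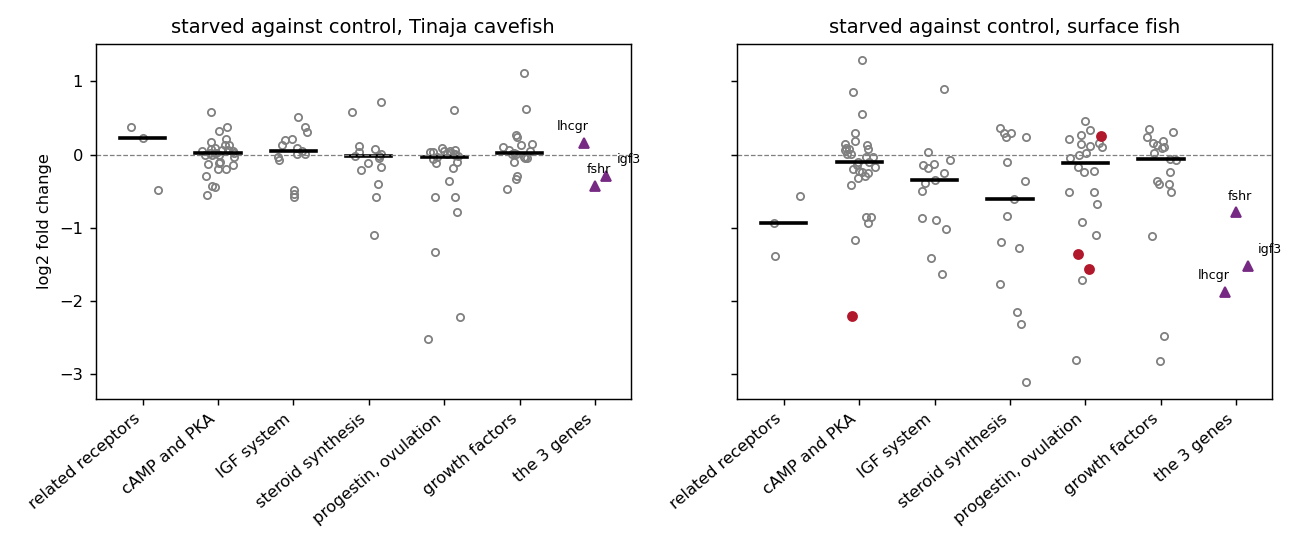
Log2 fold change of starved against control fish (y axis) for each tested gene of 6 pathway lists and for lhcgr, fshr and igf3 as triangles (x axis), in Tinaja cavefish and in surface fish. Filled circles have an adjusted p under 0.05 and black lines are list medians. In surface fish the medians run from -0.93 to -0.06, and in Tinaja cavefish from -0.03 to 0.23.

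The genes whose levels ran most like each of the 3 across libraries were found by Pearson's r of log2 CPM over the 12 libraries, after the mean of each population was subtracted, among 11255 genes. The points share the 4 groups and the composition of each library, so r is given as a description of likeness only. For lhcgr the closest were ak4 (r = 0.94, Spearman's rho = 0.96), uxs1 (0.94, 0.96) and zdhhc16a (0.94, 0.94), followed by spint2, mier3b and anxa11a (r of 0.93 to 0.94). The gene ak4 encodes a mitochondrial adenylate kinase. It had 32.9, 10.8 and 39.2 CPM in starved and 22.9, 32.7 and 17.0 CPM in control Tinaja 1, 2 and 3, against 2.44, 1.34 and 1.40 CPM in starved and 6.15, 6.92 and 7.13 CPM in control surface fish 1, 2 and 3. Like lhcgr it was lowest in starved surface fish and, among the Tinaja libraries, in starved 2. Of the other 5, all but zdhhc16a also had their lowest group mean in starved surface fish. The gene zdhhc16a, at 76.4 and 75.0 CPM in starved and control Tinaja and 76.1 and 92.0 CPM in starved and control surface fish, had similar means in Tinaja and starved surface fish.

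For fshr the closest were TECPR1 (r = 0.93, rho = 0.88), pikfyve (0.92, 0.85) and HYAL2 (0.90, 0.91), followed by zgc:153521, zmiz1a and cyp17a2 (r of 0.88 to 0.90). The gene cyp17a2, whose product makes progestin precursors in the maturing follicle of teleosts, is the 1 gene of these 6 on the steroid list. It had mean levels of 2.61 CPM in starved and 3.86 CPM in control Tinaja, and 0.790 CPM in starved and 1.93 CPM in control surface fish. For igf3 the closest were zgc:114200 (r = 0.91, rho = 0.76), sgsh (0.90, 0.76) and emc8 (0.90, 0.91), followed by slc27a2a, DIS3L2 and cbfb (r of 0.89 to 0.90). The transcription factor partner gene cbfb had 12.8, 3.47 and 15.9 CPM in starved and 3.97, 21.4 and 8.20 CPM in control Tinaja 1, 2 and 3. Like igf3 it was low in starved Tinaja 2 and control Tinaja 1. At 199 to 206 reads in all, counting error in fshr and igf3 enters these values.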

How the data were processed

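Raw counts came from the authors' deposited table, which lists 27420 genes and 4 closing entries that name no gene. Those entries, left out here, hold 7.28% to 10.1% (unmapped), 9.91% to 16.8% (multimapping), 14.1% to 17.9% (no feature) and 0.276% to 0.368% (ambiguous) of reads. STAR 2.7.10b and RSEM are named in the submitters' processing notes; the sources used here give no build, annotation or strand setting. Per the labels' protocols, the libraries kept strand, ribosomal RNA was removed with a kit made for mammals, and RNA input and PCR cycles varied between samples, with no value given for each. A second deposited table holds a signal of 14627 genes, counts scaled by library total and factor. All its values (100%) turned back into whole reads to within 0.001; edgeR run on these reads called 466 genes with starvation in surface fish.

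The main fit used edgeR 4.0.16 (R 4.3.3) with filterByExpr (minimum count 10), TMM and a robust quasi-likelihood model of 4 group means over 12 libraries (8 residual degrees of freedom). Benjamini-Hochberg adjustment covered 14627 genes. The standard error is the log2 change over the root of F. Alternatives were DESeq2 1.42.0, limma 3.58.1 voom, other scalings, filters and depths, and each library left out. The settings counted also include edgeR on the reads recovered from the signal, which only repeats the main fit. Single values were compared by exact two-sided permutation. Log2 CPM used a prior count of 2. The exact binomial intervals and the floors cover counting error only. The intervals of fold changes come from the edgeR fit and include the spread between libraries. The genes and lists were chosen with earlier results of these data known. By rule, the text names list genes that were called (the 4 of smallest adjusted p where there were more, chiefly over both feeding states), fixed ligand and receptor genes, and the 6 genes of highest r with a symbol and at least 1 CPM. The genes inha, cyp19a1a, foxl2b, gsdf, scarb1, tshr and pde7a were named after their values were seen.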

Additional observations from a re-analysis of the deposited data

How the results depend on the processing

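Between starved and control surface fish the log2 change of lhcgr was -1.88 with upper-quartile factors, -2.04 with limma voom, -1.86 in a fit of the compared groups alone and -1.56 with libraries thinned to the smallest total, none of which passed, and -2.50 to -1.52 with each library left out. For lhcgr between Tinaja and surface control fish the leave-one-out range was 1.32 to 1.58, with 3 of 6 past the threshold, and for igf3 it was 1.15 to 1.83. Over both feeding states fshr was 0.96 with thinned libraries, past the threshold, and 0.62 to 0.98 with each library left out. With starvation in Tinaja cavefish the ranges crossed 0, at -0.13 to 0.49 for lhcgr and -0.78 to 0.052 for igf3, and so did the difference of responses for fshr, at -0.012 to 0.63. The higher levels of lhcgr and igf3 in Tinaja among starved fish and over both feeding states passed in all settings run.

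Relative to granulosa markers held by no other list, lhcgr differed by 0.85 between Tinaja and surface control fish. With that list fshr turned to -0.0042 with starvation in surface fish and to -0.10 between control fish. With each library left out, relative lhcgr was -0.36 to 0.61 with starvation in Tinaja cavefish. Relative fshr was -0.070 to 0.39 with starvation in surface fish, -0.45 to 0.063 with starvation in Tinaja cavefish, -0.028 to 0.36 between control fish, -0.49 to 0.023 between starved fish and -0.17 to 0.083 over both.

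Genes called with starvation in surface fish, 466 in all, numbered 1301 with DESeq2, 136 with the compared groups alone and 26 to 526 with each library left out. In Tinaja cavefish the 3 called became 18 with DESeq2, 1 with limma voom, 0 with the compared groups alone and 3 to 32 with each library left out, beside 578 at an unadjusted p under 0.05. For the difference of responses the 10 called became 270 with DESeq2 and 8 to 52 with each library left out. The deviations of same-numbered libraries from their group means had r of -0.311 to 0.0826, against -0.110 to 0.303 for other-numbered ones. With 3 libraries a group, these values cannot settle whether the numbers pair samples. With the replicate number as a block, lhcgr was -1.92 with starvation in surface fish (adjusted p = 0.0556) and 80 genes were called there. A fit of the compared groups alone does not exist for the comparisons that use all groups. The causes of these shifts were not tested. At 2 to 41 reads a library, depth limits the precision of fshr and igf3, and at 6 to 17 reads that of lhcgr in starved surface fish.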
